A study of Mus musculus with 16 samples.

Results

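The 10 integrin subunit genes Itga1, Itga2, Itga3, Itga5, Itga6, Itgav, Itgb1, Itgb3, Itgb4 and Itgb5 were followed across 16 RNA-seq libraries of mouse brain microvascular endothelial cells (mBMEC). They were taken by name, all 10 were found among the 27253 genes with any count, and all 10 passed the filter on low counts that left 14838 genes. Counts of a gene are given as CPM, its count scaled to the TMM-adjusted size of the library, which compares a gene between libraries. Levels of different genes are compared only as TPM, a share of transcripts that corrects for length.

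Integrins are receptors of an α and a β chain that span the membrane and hold a cell to its matrix. The pairing of chains sets the ligand. The α3β1, α6β1 and α6β4 pairs bind laminins of the vascular basement membrane, α1β1 and α2β1 bind collagens, and α5β1, αvβ3 and αvβ5 bind fibronectin, vitronectin and other proteins with an RGD motif. The β1 chain is the common partner of most of these α chains. Inside the cell, talin and kindlin bind the β tail and switch the receptor on. Krit1, a partner of Ccm3 in the CCM complex, binds ICAP1 (gene Itgb1bp1), which itself binds the β1 tail and keeps it inactive.

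The cells came from 8 to 10 week old Cdh5(PAC)-CreERT2/Pdcd10 fl/fl mice and were plated on collagen I. All groups carried the floxed Pdcd10 (Ccm3) alleles and the inducible Cre, which is driven by the promoter of the endothelial gene Cdh5. WT cells received no 4-OH-tamoxifen (4-OHT) and KO cells did, so the loss of Ccm3 and exposure to 4-OHT cannot be told apart. Each culture was prepared from pooled brains. The groups were WT (n = 3), WT with 10 µM propranolol for 24 h (WT+P, n = 2), WT with 100 nM rapamycin for 24 h (WT+R, n = 2), KO (n = 3), KO with the same propranolol (KO+P, n = 3) and KO with the same rapamycin (KO+R, n = 3). The labels name the libraries of a group biological replicates. They do not say that equal numbers in different groups come from the same culture. Libraries with the same replicate number were compared as a pair, on the correlations given with the processing. Such a set is called a culture below, which is an inference from these data.

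Libraries held 18830503 to 26203339 counts. The targeted gene Pdcd10 stood at 11.5, 31.2 and 47.0 CPM in WT replicates 1, 2 and 3, and at 7.83 to 16.7 CPM in the 9 libraries from KO cells. The library labelled WT replicate 1 thus lay within the KO range, so KO vs WT, WT+P vs WT and WT+R vs WT are also given without it. The 12 endothelial markers summed to 7990 to 16000 CPM. The 10 mural markers summed to 1460 to 2490 CPM in WT+R and to 71.6 to 1400 CPM in the other groups. Most of that sum was Acta2 and Tagln, while Rgs5, Abcc9 and Kcnj8 did not exceed 1.69, 0.465 and 0.187 CPM. Of the 7 epithelial markers, Krt5 and Krt14 were listed at 0 and Epcam did not exceed 0.0462 CPM, while Krt19 reached 23.6 CPM. The 7 fibroblast markers summed to between 4.79 CPM, in KO+P, and 202 CPM, in KO+R, with Col1a1 at up to 113 CPM. In bulk RNA, fewer cells of a type and less RNA per cell cannot be told apart.

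Itgb1 was the most abundant member per transcript length in every group. Its group means ran from 547 ± 125 TPM in KO+P (SD, n = 3) to 1062 ± 99.4 TPM in WT+R (SD, n = 2). Among the α chains Itga3, a laminin receptor subunit, led with group means of 178 to 257 TPM. Itga6, another, had means of up to 166 TPM in KO, with its lowest mean in KO+P. On average 73.1% of Itga6 TPM fell on Itga6-203, an annotated fragment with no coding sequence. In KO the full-length Itga6-201 gave 17.1, 51.5 and 36.5 TPM and Itga6-202 at most 2.98 TPM, beside 80.9 to 99.8 TPM of Itga5. The place of Itga6 in this order thus rests on the reads given to that fragment. Itga5, the α chain of the fibronectin receptor, followed with 90.2 to 158 TPM and passed Itga6 in WT+P and WT+R. The libraries of Itga5 and Itga6 overlapped in WT, WT+R and KO+P, so their order there was within the spread, and lay apart in WT+P, KO and KO+R. Those of Itga3 overlapped with those of Itga6 in WT+P and KO+P, and with those of Itga5 in WT+P, WT+R and KO+P. Itgb3 had means of 31.2 to 52.2 TPM and Itgav of 13.4 to 31.4 TPM, and their libraries overlapped in WT. Itgb4 and Itga1 followed, with 8.55 to 19.3 TPM and 4.48 to 13.5 TPM, and their libraries overlapped in WT, WT+P and KO+P. Itgb4 also overlapped with Itgav in WT, KO, KO+P and KO+R, and Itga1 with Itgav in WT. Itgb5 (2.49 to 7.34 TPM) and Itga2 (0.370 to 1.01 TPM) had the lowest means in each group. Libraries of Itgb5 overlapped with those of Itga1 in KO+P and KO+R and with those of Itgb4 in WT+R, KO+P and KO+R. The order of these genes there was within the spread. Libraries of Itgb5 did not overlap with those of Itga2 in any group. Libraries of Itgb1 and Itga3, the member next in order, did not overlap in any group.

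**Figure D1:**
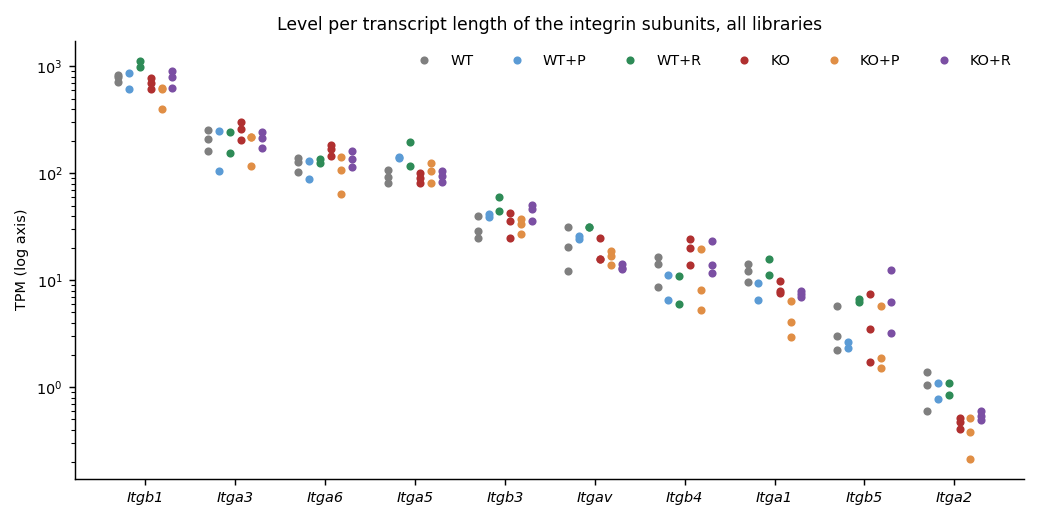
The vertical axis, on a log scale, gives TPM and each point is a library, coloured by group; genes are ordered by their median over the 16 libraries, highest first. Itgb1 lies at the top of all libraries, with group means of 547 to 1062 TPM, and Itga2 at the bottom, with means of 0.370 to 1.01 TPM.

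Itga6 (chr2:71575960-71689757) and Itgav (chr2:83554403-83637260) lie on the plus strand of chromosome 2 in GRCm39. Itga3 (chr11:94935296-94967682, minus strand), Itgb3 (chr11:104498826-104561302, plus) and Itgb4 (chr11:115865333-115899239, plus) lie on chromosome 11. Itga1 (chr13:115089632-115238677) and Itga2 (chr13:114969617-115068636) are neighbours on the minus strand of chromosome 13. Itga5 is at chr15:103252713-103275270 (minus), Itgb1 at chr8:129411876-129460618 (plus) and Itgb5 at chr16:33649988-33771137 (plus).

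The members with more than 1 annotated form differ in an end of the protein or in a stretch within it, and the files count each form apart. The α6 chain exists with an A or a B cytoplasmic tail. The A tail is written by an exon that the B form skips, at chr2:71683878-71684007 (GRCm39, plus strand). The B tail begins in the last exon, at chr2:71686198. Both coding stretches are shown, with the stop codon in capitals. Itga6-201 carries the A tail and Itga6-202 the B tail. The last exon of Itga6-201 also holds the bases of the B stretch, after its stop codon. Of the stretches shown, only that of the A tail therefore tells the counts of these forms apart.
Itga6 A tail, chr2:71683878-71683985: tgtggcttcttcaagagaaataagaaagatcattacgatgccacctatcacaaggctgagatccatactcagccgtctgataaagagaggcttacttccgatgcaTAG
Itga6 B tail, chr2:71686198-71686359: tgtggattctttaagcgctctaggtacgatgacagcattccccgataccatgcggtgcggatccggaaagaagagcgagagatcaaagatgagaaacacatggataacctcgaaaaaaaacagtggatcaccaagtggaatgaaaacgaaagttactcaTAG
Between the full-length forms, by TPM, the A form held 67.5 to 95.6% with a median of 89.4%. It stood at 79.8%, 92.3% and 80.2% in WT replicates 1, 2 and 3 and at 91.3%, 94.5% and 92.5% in the KO libraries of the same numbers. KO was the higher in 3 of 3 cultures, and the ranges of the groups overlapped. Most Itga6 counts fell on neither form. Itga6-203, an annotated fragment of 3 exons with no coding sequence that runs into the last exon without the A exon, took 66.3% of them on average (55.1 to 84.2%). The tail used by those reads is not known.

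Itga3 has an alternative first exon. Itga3-201 starts in the exon at chr11:94966957-94967644 and Itga3-202 in the exon at chr11:94959538-94960024, 7620 bases downstream on the minus strand. The encoded chains have 1053 and 1022 amino acids and differ only at the amino terminus. The coding bases that only 1 of these first exons holds are shown, on the minus strand, with the start codon in capitals.
Itga3-201, chr11:94966957-94967162: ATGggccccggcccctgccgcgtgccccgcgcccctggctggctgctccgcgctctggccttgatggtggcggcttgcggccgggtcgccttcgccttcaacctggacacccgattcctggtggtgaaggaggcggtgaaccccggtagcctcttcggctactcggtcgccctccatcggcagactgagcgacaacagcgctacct
Itga3-202, chr11:94959666-94959778: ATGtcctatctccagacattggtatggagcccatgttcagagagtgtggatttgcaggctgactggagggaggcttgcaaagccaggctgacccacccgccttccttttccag
Itga3-202, like Itga6-202, was chosen after its values were seen. It took 25.6% of Itga3 counts in KO replicate 1, 45.8% in KO+P replicate 1 and 60.6% in KO+R replicate 1. These are 4328, 4233 and 7114 counts. In WT replicate 1 it took 5.3%, and in the other 12 libraries at most 1.2%, including 0.0% in WT+P replicate 1 and WT+R replicate 1. A high share on Itga3-202 was thus seen in the 3 KO libraries that carry number 1 and in no library of numbers 2 or 3. Total Itga3 in the same libraries was 654, 385 and 622 CPM, within the range of the other libraries (312 to 913 CPM). The annotated first exons differ by the 688 bases of that of Itga3-201 and by 359 bases found only in that of Itga3-202. These do not account for the whole difference between the lengths counted, 4861 and 4636 bases. The split may therefore also rest on other bases, and it is an estimate of the counting tool.

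Itgav has a form that skips 2 neighbouring exons, together 108 bases, which shortens the chain from 1044 to 1008 amino acids in the stretch that faces the outside of the cell. The skipped exons are shown, on the plus strand.
Itgav first skipped exon, chr2:83592212-83592273: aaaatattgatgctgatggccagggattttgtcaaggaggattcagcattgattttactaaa
Itgav second skipped exon, chr2:83593996-83594041: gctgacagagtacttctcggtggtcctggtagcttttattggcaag
The short form, Itgav-202, held 22.1 to 83.6% of Itgav counts with a mean of 45.0%. It was 35.2 to 83.6% in the 6 libraries with number 1, 23.7 to 62.0% in the 6 with number 2 and 22.1 to 49.2% in the 4 with number 3. By counts Itgb5 was split between the full Itgb5-202 (mean 53.9%) and Itgb5-207 (45.4%), which starts inside the gene, and Itgb4-204 held 71.4% of Itgb4 counts. By TPM, which corrects for length, the mean shares were 43.3% for Itgb5-202, 56.1% for Itgb5-207 and 33.0% for Itgav-202. Itga1, Itga2, Itga5, Itgb1 and Itgb3 had 98.4% or more of their counts on a single form in all libraries.

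**Figure D2:**
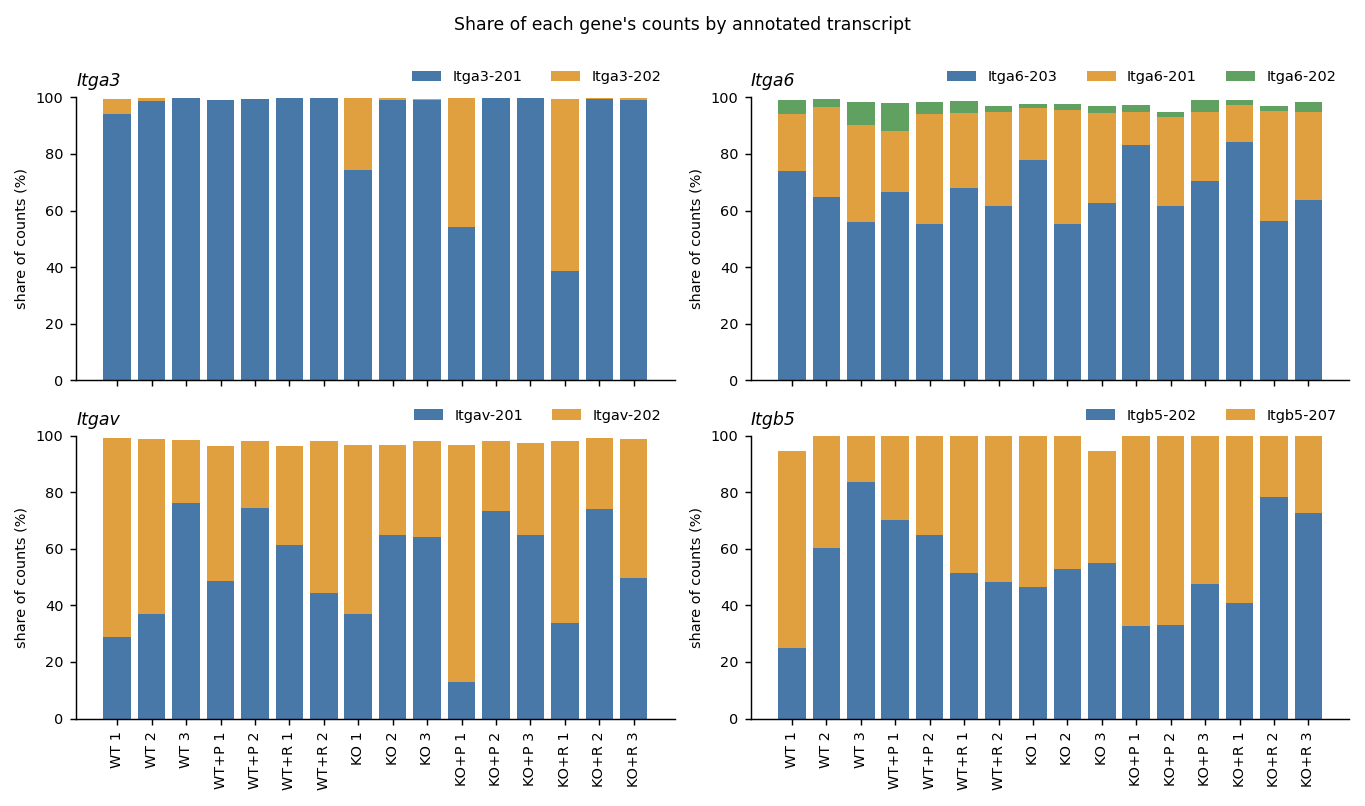
Bars give the share of a gene's counts, in percent, that fell on each annotated transcript, 1 bar per library in the order of groups; the remainder to 100 is other transcripts. Itga3-202 reaches 25.6 to 60.6% in KO replicate 1, KO+P replicate 1 and KO+R replicate 1, and Itga6-203 holds 55.1 to 84.2% throughout.

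The first comparison asked which members differ with the loss of Ccm3 in untreated cells. By edgeR's quasi-likelihood test, with a call at a Benjamini-Hochberg adjusted p under 0.05 and a fold change above 1.5, 0 of 10 members were called, and 0.00674% of all genes were. At an unadjusted p under 0.05 the test held 1 member, against 6.07% of all genes. Log2 fold changes of the members ran from -1.08 to 0.55 with a median of 0.07, beside a median of -0.01 over all genes. In 2 of 10 members the libraries of WT and KO did not overlap, against 13.2% of all genes. DESeq2, when replicate number entered the model, called 1 of 10 (Itga2), against 2.78% of all genes.

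These were Itga2 and Itga6. Itga2, the α chain of a collagen receptor, gave 2.90, 4.74 and 5.70 CPM in WT and 1.98, 2.20 and 2.13 CPM in KO. All 3 KO libraries were below all WT libraries, and WT replicate 1 was the lowest of its group. The log2 fold change was -1.08 ± 0.30 (SE; adjusted p = 0.483, edgeR) with WT replicate 1 and -1.32 ± 0.30 (adjusted p = 0.33, edgeR) without it. The gene is near the bottom of the measured range, so these values rest on few reads, and 6.2% of its exonic bases overlap Mocs2 on the other strand, from which unstranded reads cannot be told apart.

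Itga6 gave 230, 256 and 176 CPM in WT and 269, 330 and 308 CPM in KO. KO was above WT in each culture, with log2 differences of 0.23, 0.37 and 0.81, and the test did not pass (adjusted p = 0.897, edgeR). Itga3 gave 523, 774 and 604 CPM in WT and 654, 913 and 823 CPM in KO, also higher in KO in 3 of 3 cultures. The within-culture log2 differences of Itga3 were 0.32, 0.24 and 0.45, and the groups overlapped. Itgav, the α chain of vitronectin receptors, gave 51.5, 82.4 and 96.9 CPM in WT and 41.5, 67.3 and 50.4 CPM in KO. In CPM it was lower in KO in 3 of 3 cultures, by 0.31, 0.29 and 0.94 on the log2 scale, with overlapping groups. By TPM the values were 12.2, 20.6 and 31.2 in WT and 15.8, 24.8 and 15.8 in KO. On that measure KO was the higher in replicates 1 and 2. In CPM only replicate 1 of the WT libraries lay within the KO range. The log2 fold change was -0.54 ± 0.25 (unadjusted p = 0.0508, adjusted p = 0.825, edgeR) with WT replicate 1. Without it the value was -0.77 ± 0.23 (unadjusted p = 0.00676, adjusted p = 0.564, edgeR), which is not a call.

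Under propranolol in KO cells, 0 of 10 members were called, against 0.00674% of all genes. At an unadjusted p under 0.05 the edgeR test held 2 members, both lower, against 12.6% of all genes in either direction. Fold changes ran from -0.88 to 0.23 on the log2 scale with a median of -0.37, beside -0.01 over all genes, and 1 of 10 was above 0, against 49.3% of all genes. Libraries of KO and KO+P did not overlap for 3 members (Itga1, Itga6 and Itgb1), against 18.7% of all genes. DESeq2 with the block called 2 of 10 (Itga1 and Itga6), against 7.44% of all genes.

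Itga1, whose chain pairs with β1 to bind collagen IV, stood at 75.0, 52.1 and 52.7 CPM in KO and at 23.4, 27.6 and 47.1 CPM in KO+P. All KO+P libraries were below all KO libraries, and replicate 3 was the closest to them. The log2 fold change was -0.88 ± 0.27 (adjusted p = 0.298, edgeR). Without KO+P replicate 3 it was -1.23 (adjusted p = 0.0324, edgeR), which is past the call. Of its exonic bases 14.1% overlap other genes, chiefly Mocs2.

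Itga6 stood at 124, 189 and 254 CPM in KO+P, below the 269 to 330 CPM of KO. Its log2 fold change was -0.68 ± 0.24 (adjusted p = 0.326, edgeR). The partner chains of α6 did not pass the test. Itgb1 gave 1536, 1733 and 1623 CPM in KO and 1099, 1426 and 1493 CPM in KO+P, lower by 0.48, 0.28 and 0.12 on the log2 scale within cultures. Itgb4, the partner of α6 in hemidesmosomes, gave 74.8, 50.0 and 90.1 CPM in KO and 21.6, 29.7 and 74.3 CPM in KO+P, and 17.5% of its exonic bases overlap other genes, chiefly Galk1 on the other strand. Replicate 1 showed the widest gap and replicate 3 the narrowest for Itga1, Itga6, Itgb1 and Itgb4, and for Itga3 as well. The endothelial markers summed to 12400 to 13800 CPM in KO and to 8520 to 12100 CPM in KO+P, and their part in these values was not tested.

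In WT cells propranolol left 0 of 10 members called, against 0.00674% of all genes, with 1 member at an unadjusted p under 0.05 by edgeR against 9.87% of all genes. Itga5 and Itga1 had libraries that did not overlap, 2 of 10 against 21.2% of all genes. Itga5, the fibronectin receptor α chain, gave 235, 296 and 239 CPM in WT and 372 and 376 CPM in WT+P. Both treated libraries lay above all untreated ones. The log2 fold change was 0.54 ± 0.21 (adjusted p = 0.475, edgeR), and 0.47 ± 0.24 (adjusted p = 0.811, edgeR) without WT replicate 1. In KO cells the same gene gave 318, 344 and 225 CPM with propranolol and 233, 271 and 252 CPM without, so that replicate 3 went the other way. Itga1 was below WT (66.0 to 90.9 CPM) in both WT+P libraries, at 45.0 and 62.0 CPM. The endothelial markers summed to 12000 to 16000 CPM in WT and to 7990 to 11600 CPM in WT+P, with a median log2 fold change of -0.61 and 4 of 12 lower at an unadjusted p under 0.05 by edgeR. Their part in these values was not tested.

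Rapamycin was the drug under which members passed the call in a blocked edgeR fit. In KO cells 0 of 10 were called by edgeR without a block, against 1.51% of all genes, and 1 of 10 was past an unadjusted p under 0.05, against 12.5% of all genes. Libraries did not overlap for 4 members (Itga2, Itga5, Itgb1 and Itgb3), against 24.1% of all genes. With the replicate number as a block, which compares libraries of the same number, 1 of 10 was called, against 4.98% of all genes. DESeq2 with the block also called 1 of 10, against 7.72%.

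The member called under the block was Itgb5, the β chain of the αvβ5 vitronectin receptor. It gave 5.54, 2.62 and 12.3 CPM in KO and 11.1, 5.95 and 23.2 CPM in KO+R. The groups overlapped, and replicate 3 was the highest and replicate 2 the lowest in both. Within cultures the log2 difference was 0.99, 1.16 and 0.91. The log2 fold change was 0.98 ± 0.66 without the block (adjusted p = 0.617, edgeR) and 1.02 ± 0.21 with it (adjusted p = 0.0147, edgeR). The same gene in WT cells gave 4.37, 3.59 and 9.80 CPM without and 10.4 and 10.6 CPM with rapamycin. There the log2 fold change was 0.82 ± 0.72 (adjusted p = 0.734, edgeR) without the block and 1.51 ± 0.24 (adjusted p = 0.00469, edgeR) with it. The number 3 culture, the highest in Itgb5, has no WT+R library.

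Itgb3, the β chain of αvβ3, gave 97.9, 152 and 135 CPM in KO and 162, 191 and 185 CPM in KO+R. All 3 treated libraries were above all untreated ones, with within-culture log2 differences of 0.73, 0.33 and 0.46. Its log2 fold change of 0.48 ± 0.19 (adjusted p = 0.294, edgeR) became 0.50 ± 0.12 with the block (adjusted p = 0.0288, edgeR), which passes on p but not on fold. Itgb1 gave 1872, 2156 and 1985 CPM in KO+R beside 1536, 1733 and 1623 CPM in KO. The within-culture log2 differences were nearly equal, 0.28, 0.32 and 0.29, and the test did not pass (adjusted p = 0.463 without and 0.138 with the block, edgeR). The mural markers summed to 271 to 453 CPM in KO+R and to 71.6 to 206 CPM in KO. Their median log2 fold change was 0.22 over the 8 tested, and their part in these values was not tested.

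In WT cells rapamycin left 0 of 10 members called without the block, against 1.4% of all genes. At an unadjusted p under 0.05 the edgeR test held 3 of 10, all higher, against 12.6% of all genes in either direction. The median log2 fold change was 0.32, beside -0.01 over all genes, and libraries did not overlap for 4 members (Itga5, Itgb1, Itgb3 and Itgb5), against 28.6% of all genes. With the block 3 of 10 were called (Itga5, Itgb3 and Itgb5), against 4.56% of all genes. DESeq2 called 2 of 10 (Itga5 and Itgb3), against 3.88% of all genes, and 3 of 10 with the block, against 6.72%.

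Itga5 gave 347 and 571 CPM in WT+R, above the 235 to 296 CPM of WT, and replicate 2 was much the higher of the pair. The log2 fold change was 0.84 ± 0.21 (adjusted p = 0.0628, edgeR) and 0.76 ± 0.17 with the block (adjusted p = 0.0214, edgeR). Itgb3 gave 95.7, 147 and 98.6 CPM in WT and 177 and 230 CPM in WT+R, a log2 fold change of 0.84 ± 0.21 (adjusted p = 0.066, edgeR) and 0.85 ± 0.13 with the block (adjusted p = 0.00469, edgeR). Itgb1 gave 1764, 1954 and 1700 CPM in WT and 2540 and 2717 CPM in WT+R, with a log2 fold change of 0.54 ± 0.17 (adjusted p = 0.156, edgeR). Without WT replicate 1 the log2 fold changes of Itga5, Itgb3 and Itgb1 were 0.78, 0.73 and 0.52 (adjusted p = 0.18, 0.19 and 0.299, edgeR). With the block and without WT replicate 1, a fit added after the data were seen, Itga5 was not called (0.72, adjusted p = 0.0871, edgeR), while Itgb3 (0.82, adjusted p = 0.0249) and Itgb5 (1.5, adjusted p = 0.0227) were, and Itgb1 was just inside the call (0.62, adjusted p = 0.0498). Of the mural markers, Acta2 and Tagln were high in the same libraries. Over the 8 mural markers tested the median log2 fold change in WT+R vs WT was 0.4. Rgs5, Notch3 and Cspg4 were lower, with log2 fold changes of -2.89, -1.17 and -0.46. Acta2 gave 32.5, 170 and 61.8 CPM in WT and 557 and 618 CPM in WT+R, and Tagln gave 56.0, 659 and 149 CPM in WT and 899 and 1858 CPM in WT+R. The endothelial markers summed to 12000 to 16000 CPM in WT and to 10700 to 11300 CPM in WT+R, with a median log2 fold change of -0.34, 3 of 12 lower and 1 higher at an unadjusted p under 0.05 by edgeR. Cdh5 had a log2 fold change of -0.68 (adjusted p = 0.0874, edgeR). The part of either marker list in the values of the integrins was not tested.

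**Figure D3:**
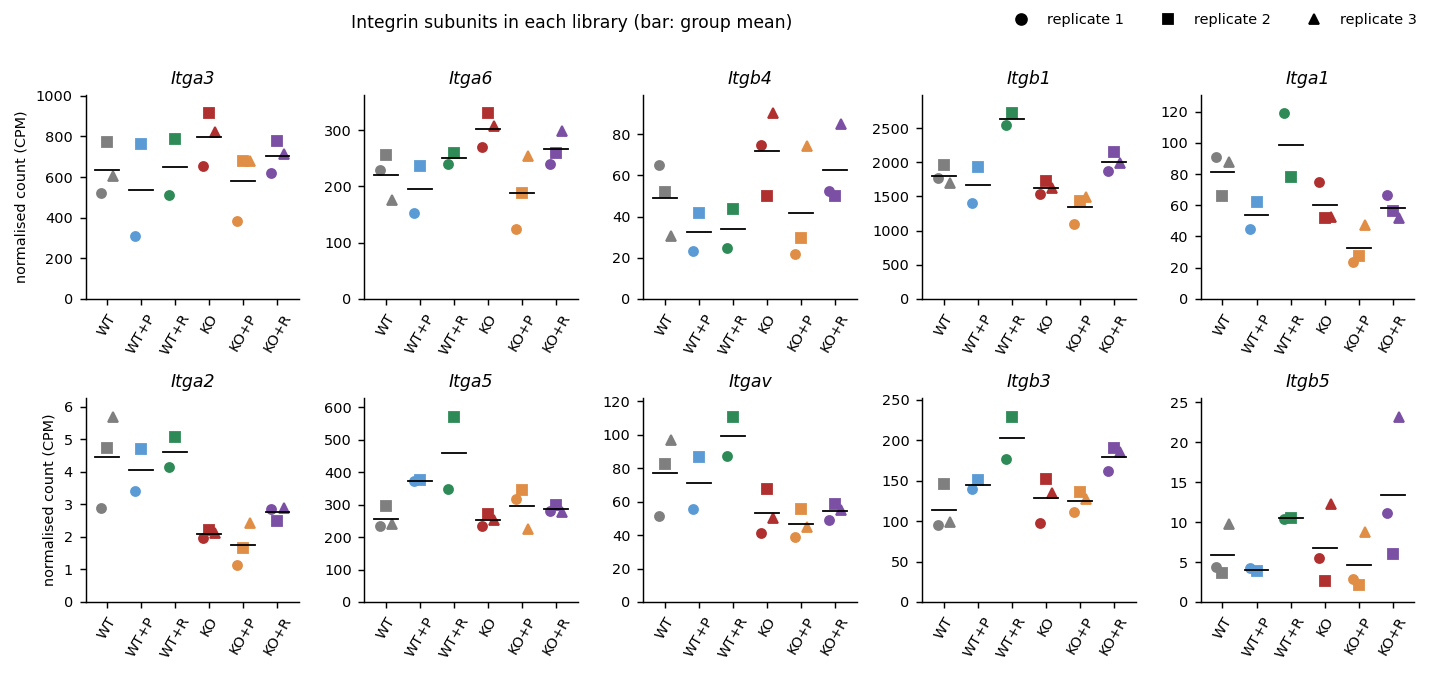
Each panel is a gene and the vertical axis is the normalised count (CPM) from 0; points are libraries, their shape gives the replicate number and the bar the group mean. Itgb1 and Itgb3 in KO+R lie above all KO libraries, Itga2 in KO lies below all WT libraries, and Itgb5 follows the replicate number, with replicate 3 the highest in WT, KO, KO+P and KO+R.

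Whether a drug acted differently on a member in WT and in KO cells was tested as an interaction. For propranolol 0 of 10 members passed, as did 0% of all genes, and 0 of 10 had an unadjusted p under 0.05 by edgeR against 0.721% of all genes. For rapamycin 0 of 10 passed, as did 0% of all genes, and 1 of 10 had an unadjusted p under 0.05 against 0.762% of all genes. That member was Itga5. Its rapamycin change was smaller in KO (279, 299 and 278 CPM in KO+R beside 233 to 271 CPM in KO) than in WT, by -0.66 ± 0.28 on the log2 scale (adjusted p = 1, edgeR). Without WT replicate 1 its unadjusted p in the edgeR fit was 0.0796. No member can be said to respond differently by genotype at this depth and number of libraries, and the 95% intervals remain wide. That of Itga5 ran from -1.26 to -0.06, and that of Itgb5 from -1.96 to 2.27.

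KO and WT cells under the same drug were then compared. These comparisons share their treated libraries with those above. Under propranolol 0 of 10 members were called, as were 0% of all genes, and 3 of 10 were past an unadjusted p under 0.05 by edgeR, all lower in KO+P, against 6.19% of all genes. Libraries did not overlap for 3 members (Itga2, Itga5 and Itgb3), against 16.6%. DESeq2 with the block called 2 of 10 (Itga2 and Itgav), against 2.05% of all genes. Itga2 gave 3.42 and 4.69 CPM in WT+P and 1.12, 1.67 and 2.43 CPM in KO+P, with a log2 fold change of -1.22 ± 0.34 (adjusted p = 0.497, edgeR). Itga1 and Itgav had values of -0.71 ± 0.29 and -0.61 ± 0.27 (adjusted p = 0.76 and 0.792, edgeR), with overlapping libraries.

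Under rapamycin 0 of 10 members were called, as were 0% of all genes. Itga1, Itga2, Itga5, Itgav and Itgb1 were past an unadjusted p under 0.05 by edgeR, all lower in KO+R, which is 5 of 10 against 5.72% of all genes. Libraries did not overlap for 6 of 10 members, these 5 and Itgb4, against 19.2% of all genes. Itgb4 went the other way, with 24.6 and 43.7 CPM in WT+R and 52.6, 49.8 and 84.9 CPM in KO+R. DESeq2 with the block called 2 of 10 (Itga5 and Itgav), against 2.37% of all genes. Itgav gave 87.2 and 111 CPM in WT+R and 49.3, 58.4 and 55.1 CPM in KO+R. Its log2 fold change was -0.87 ± 0.27 (adjusted p = 0.576, edgeR), and -0.90 ± 0.16 with the block (adjusted p = 0.0559, edgeR). With the block and without WT replicate 1 it was -0.88 and past the call (adjusted p = 0.0437, edgeR). Itga5 had -0.69 ± 0.21 (adjusted p = 0.526, edgeR), Itga1 and Itga2 -0.75 each, and Itgb1 -0.39 ± 0.17 (adjusted p = 0.839, edgeR). Itga2 was therefore lower in KO than in WT libraries, without overlap, in untreated, propranolol-treated and rapamycin-treated cells, and in none of the 3 was it called by edgeR, with or without the block. DESeq2 with the block called it in untreated and in propranolol-treated cells (adjusted p = 0.0048 and 0.00139). The mural markers summed to 1460 to 2490 CPM in WT+R (n = 2) and to 271 to 453 CPM in KO+R (n = 3). Over the 8 tested their median log2 fold change in KO+R vs WT+R was 0.12. Of these, 1 was higher and 3 were lower at an unadjusted p under 0.05 by edgeR. For the endothelial markers the sums were 10700 to 11300 CPM in WT+R and 11900 to 13100 CPM in KO+R. The part of either list in the differences of KO+R from WT+R was not tested.

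**Figure D4:**
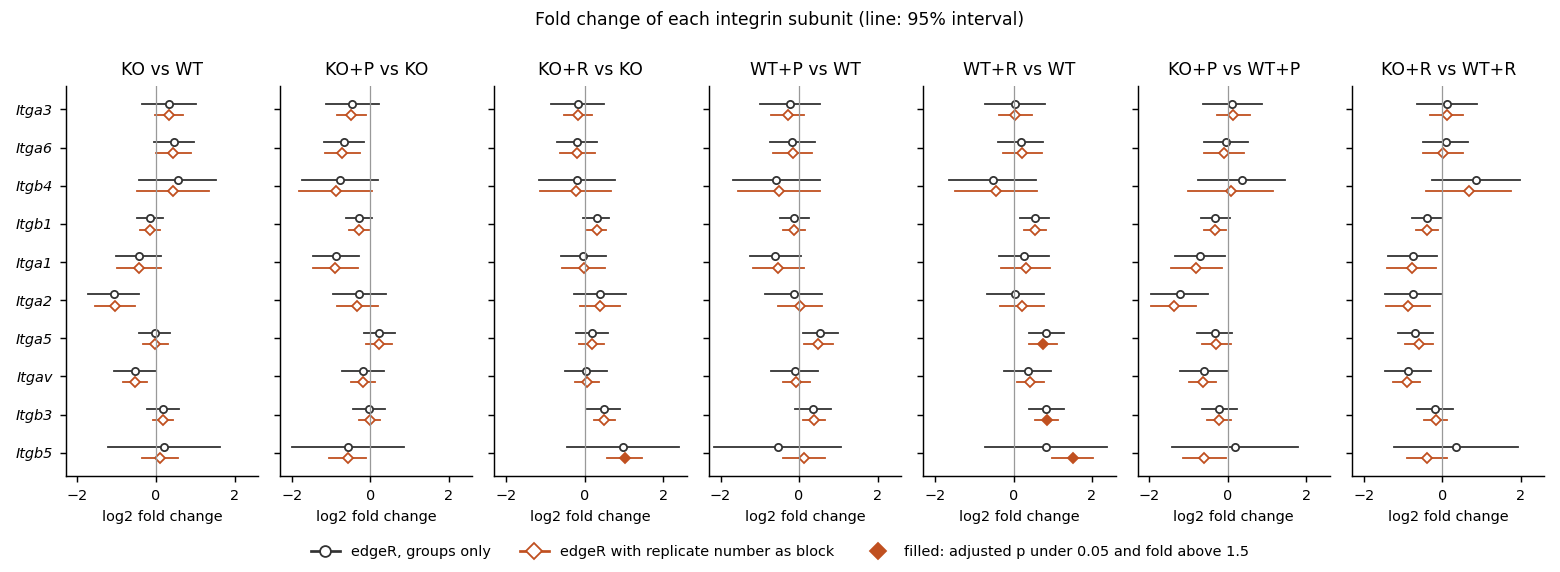
Points are log2 fold changes of the 10 members in 7 comparisons and lines their 95% intervals, from edgeR with groups only (circles) and with the replicate number as a block (diamonds); filled symbols are called. The filled diamonds are Itgb5 in KO+R vs KO (1.02) and Itga5, Itgb3 and Itgb5 in WT+R vs WT (0.76, 0.85 and 1.51).

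How much of a member's spread went with the groups differed. Over 16 libraries, on the log2 scale, group means held 82.6% of the variance of Itgb1, 79.0% of Itga2 and 77.4% of Itga1, beside a median of 44.7% over all genes tested. Replicate number held 59.1% of the variance of Itga3 and 45.3% of that of Itgb5, beside a median of 23.4%. Itgb5 had the widest range of all members, 3.37 log2 units. Within groups, the deviations of Itgb1 went with those of Itga3 (Pearson's r = 0.94) and Itga6 (r = 0.89), and those of Itga1 ran against Itga5 (r = -0.82). These are descriptions over 16 libraries that share cultures and scaling.

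Of the 17 other integrin subunits listed, 11 passed the filter. Most were low, with Itga8 (median 12.0 TPM), Itga9 (7.02 TPM), Itga2b (6.30 TPM) and Itga4 (5.87 TPM) the highest. Itga10, Itga7, Itgb2, Itgb7, Itgax, Itga11 and Itgal had medians of at most 0.606 TPM. Itga8, an RGD-binding α chain that pairs with β1, was the 1 of 11 called in KO+R vs KO and the 1 of 11 called in WT+R vs WT, against 1.51% and 1.4% of all genes. It gave 36.0, 40.7 and 31.1 CPM in KO and 85.8, 101 and 81.6 CPM in KO+R. The log2 fold change in KO was 1.32 ± 0.18 (adjusted p = 0.00521, edgeR). In WT it went from 29.4, 27.2 and 32.9 CPM to 73.5 and 82.3 CPM, by 1.38 ± 0.19 (adjusted p = 0.00635, edgeR). All treated libraries were above all untreated ones in both genotypes. Itga4, an α chain of the fibronectin and VCAM1 receptor α4β1, gave 119 and 110 CPM in WT+R and 12.9, 56.6 and 25.7 CPM in WT, and was not called without the block. With the block Itga8 alone was called in KO+R vs KO, and in WT+R vs WT Itga8 and Itga4 rose and Itga9, an α chain that binds tenascin C, fell (log2 fold change -0.84 ± 0.14, adjusted p = 0.00735, edgeR).

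The ligands, adaptors and regulators of integrins were read from fixed lists. Among 14 tested RGD and matricellular ligands, 2 rose and 1 fell with rapamycin in KO cells, and 2 rose and 1 fell in WT cells, against 1.51% and 1.4% of all genes called. With the block 3 rose and 1 fell in each genotype, against 4.98% and 4.56% of all genes, the gene added being Ccn1 (1.45 ± 0.19 in KO and 1.21 ± 0.22 in WT on the log2 scale, adjusted p = 0.0017 and 0.00887, edgeR). Thbs1, thrombospondin 1, a ligand of αvβ3, gave 1928, 1686 and 1516 CPM in KO and 4689, 3672 and 3355 CPM in KO+R (log2 fold change 1.19 ± 0.22, adjusted p = 0.0212, edgeR). In WT cells its log2 fold change was 1.17 ± 0.24 (adjusted p = 0.0309, edgeR). Ccn2, a matricellular ligand of αv and α5 integrins, rose by 1.68 ± 0.30 in KO and by 1.82 ± 0.33 in WT on the log2 scale (adjusted p = 0.0185 and 0.0182, edgeR). Fbln5, fibulin 5, an elastic fibre protein with an RGD motif, fell by 2.42 ± 0.44 in KO and by 3.01 ± 0.53 in WT (adjusted p = 0.0175 in each, edgeR). Without WT replicate 1 and without the block, 0 rose and 1 fell in WT cells.

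Among 18 tested adaptors and focal adhesion proteins, 1 rose in KO+R vs KO and 3 in WT+R vs WT, against 1.51% and 1.4% of all genes called, and 0 fell by edgeR without the block. With the block 2 rose (Lims2 and Vcl) and 1 fell (Tns1, tensin 1, log2 fold change -0.59 ± 0.14, adjusted p = 0.0339, edgeR) in KO+R vs KO, against 4.98% of all genes. In WT+R vs WT 4 rose, Flna (filamin A) being added, and 0 fell, against 4.56%. Lims2, which binds integrin-linked kinase, gave 104.1, 84.1 and 118 CPM in KO and 199, 173 and 197 CPM in KO+R, a log2 fold change of 0.89 ± 0.19 (adjusted p = 0.035, edgeR), and rose by 1.17 ± 0.21 in WT cells (adjusted p = 0.0177, edgeR). Vcl (vinculin) and Actn1 (α-actinin 1), which tie integrins to actin, rose in WT+R by 1.29 ± 0.29 and 0.89 ± 0.18 (adjusted p = 0.0469 and 0.0287, edgeR), and 24.6% of the exonic bases of Vcl overlap Ap3m1. Without WT replicate 1 only Lims2 of these 3 was called. The 25 laminin and collagen ligands, the 10 adhesion kinases and GTPases, the 4 inhibitors of integrin activation and the 14 membrane partners and trafficking genes held 0 calls in all 7 comparisons by edgeR without the block. In single comparisons 0 to 6 genes of a list had an unadjusted p under 0.05 by edgeR, against 5.72 to 12.6% of all genes. The count of 6 was reached in 2 lists. Of 10 adhesion kinases and GTPases, 3 were higher and 3 lower in KO+P vs KO, against 12.6% of all genes. Of 25 laminin and collagen ligands, 1 was higher and 5 were lower in KO vs WT, against 6.07%. With the block 1 laminin chain was called in KO+R vs KO, Lamc1, with a log2 fold change of -0.67 ± 0.14 (adjusted p = 0.0165, edgeR).

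With the loss of Ccm3, 0 genes of any of these lists were called by edgeR without the block, and with it 2 were, Lamb1 and Thbs1, against 0.182% of all genes. The smallest adjusted p without the block was that of Lamb1, the laminin β1 chain, with 408, 354 and 515 CPM in WT and 187, 211 and 160 CPM in KO (log2 fold change -1.20 ± 0.22, adjusted p = 0.262, edgeR). With the block it was -1.21 ± 0.20 (adjusted p = 0.0473, edgeR). Thbs1 gave 3095, 2987 and 3796 CPM in WT beside the 1516 to 1928 CPM of KO, a log2 fold change of -0.95 ± 0.22 (adjusted p = 0.366, edgeR) and -0.95 ± 0.16 with the block (adjusted p = 0.0473, edgeR). For Lamb1 and Thbs1 all KO libraries were below all WT libraries. With the block Thbs1 was also called lower in KO+P vs WT+P (-1.47 ± 0.18, adjusted p = 0.0146, edgeR), against 0.0876% of all genes. Lama4, the α4 laminin chain of vessels and a ligand of α6β1, gave 568, 474 and 749 CPM in WT and 426, 379 and 395 CPM in KO (adjusted p = 0.39, edgeR). Under propranolol in KO cells, Itgb1bp1, the ICAP1 gene, gave 65.0, 56.6 and 52.2 CPM beside 40.2, 39.4 and 42.5 CPM in KO, with a log2 fold change of 0.51 ± 0.13 (adjusted p = 0.23, edgeR). Of its exonic bases 43.6% overlap Asap2 and Cpsf3, from which unstranded reads cannot be told apart. Pxn, the focal adhesion scaffold paxillin, gave 185, 179 and 233 CPM beside 314, 261 and 286 CPM (log2 fold change -0.53 ± 0.15, adjusted p = 0.28, edgeR).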

How the data were processed

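RNA of mBMEC was made into 16 unstranded poly(A) libraries, numbered 1 to 3 within a group. Per the labels, what the processing notes name includes Trim Galore 0.6.7, Salmon 1.5.2, HTSeq 0.13.5, DESeq2 1.34.0 and the GRCm39 build. The paper describes alignment with STAR and gene counts from HTSeq, which were not used here. The authors deposited 1 table per library with an expected count, a TPM and an effective length for each of 140789 transcripts. Of these, 99.12% were named by GENCODE vM39. The expected counts, which the authors deposited without scaling, were summed per gene and rounded. The deposited TPM values were summed per gene for levels between genes. The deposited effective length (unit other) served for an offset. The transcript tables hold estimates, so shares within a gene depend on the tool.

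Each library held 18830503 to 26203339 counts, which limits precision least for Itgb1 and most for Itga2 and Itgb5. Genes were filtered with filterByExpr (14838 kept) and tested with edgeR 4.0.16 in R 4.3.3 (TMM factors 0.934 to 1.041, 10 residual degrees of freedom), all 16 libraries in a model of 6 group means. Calls needed an adjusted p under 0.05 and a fold above 1.5 (interactions, the p alone). The fit was tested on simulated data: for KO+R vs KO over 14838 genes it recovered 47% of 2-fold and 86% of 4-fold changes. The common dispersion gave a coefficient of variation between libraries of 32.3% (19% under the block).

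Alternatives were the replicate number as a block, DESeq2 1.42.0 with and without it, DESeq2 size factors, no filter, the compared groups alone, an effective length offset, and each library left out. Libraries of the same number mostly deviated together: correlations of their deviations from group means were 0.19 to 0.62 for WT and KO, 0.31 to 0.58 for KO and KO+P and 0.41 to 0.62 for KO and KO+R. Over all groups the 36 pairs of the same number ran from 0.03 to 0.69 with a median of 0.52. The 70 pairs of different number ran from -0.69 to 0.4 with a median of -0.23, so the ranges overlapped. On these values the numbers were taken to pair libraries. Blocked values stand beside results whose call they change, marker lists aside.

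All 10 members are named in each comparison, with other integrins that passed the filter, up to 4 called genes per pathway list (or up to 2 of the smallest adjusted p where none was called), and Pdcd10. Fitted values are given one by one where the unadjusted p was under 0.05 or an alternative made a call. That of Itgav in KO vs WT was added for the fit without WT replicate 1. The members, lists and rules were chosen with earlier results of these data known. P-values measure the spread between these libraries. Propranolol and rapamycin were not compared with each other, and protein sequences were not used here. Sequences and coordinates are from GRCm39.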

Additional observations from a re-analysis of the deposited data

How the results depend on the processing

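The number of members called was 0 in all 9 comparisons, interactions included, with edgeR under DESeq2 size factors, with the compared groups alone and with an effective length offset. The replicate block gave 1 in KO+R vs KO and 3 in WT+R vs WT, and changed no other count. DESeq2 gave 2 in WT+R vs WT. DESeq2 with the block gave 1 in KO vs WT (Itga2), 2 in KO+P vs KO (Itga1 and Itga6), 1 in KO+R vs KO, 3 in WT+R vs WT, 2 in KO+P vs WT+P (Itga2 and Itgav) and 2 in KO+R vs WT+R (Itga5 and Itgav). No filter gave 1 in WT+R vs WT. The block without WT replicate 1, added after the data were seen, gave 1 in KO+R vs KO, 3 in WT+R vs WT (Itgb1, Itgb3 and Itgb5) and 1 in KO+R vs WT+R. With each library left out in turn, the count was 0 to 1 in KO+P vs KO and in WT+R vs WT and 0 in the others. Of 70 fold changes of members in 7 comparisons, 24 changed sign in at least 1 of 24 settings; these were at most 0.56 in size on the log2 scale with unadjusted p of at least 0.326, and none was among the 19 given singly. By TPM the mean share of Itga6-201 was 18.8% against 27.9% by counts. The blocked fit also changed the calls of no other member than Itga5, Itgb3 and Itgb5. Per CPM and kb, Itga5 ranked 3 and Itga6 ranked 4 in KO+P, the reverse of TPM. Itga8 kept its call in KO in every setting, and in WT in all but the fit of the compared groups alone (adjusted p = 0.0749, edgeR). The calls of Thbs1, Ccn2, Fbln5, Lims2, Vcl and Actn1 were each lost when some single libraries were left out, with direction kept. With 2 or 3 libraries a group, a member without a call is not shown to be unchanged. The cause of these differences was not tested.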
